A study of Mus musculus with 15 samples.

Results

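The 10 genes described here encode the D-type cyclins (Ccnd1, Ccnd2, Ccnd3), their kinases (Cdk4, Cdk6), the 4 INK4 inhibitors (Cdkn2a, Cdkn2b, Cdkn2c, Cdkn2d) and the CIP/KIP inhibitor p27 (Cdkn1b). They were taken by symbol, by a rule that uses no measured value but was set with earlier results of these data known, from the 26509 genes that the 2 deposited count tables list together. All 10 were measured in cultured mouse retinal pigment epithelium (mRPE) cells, where 20910 genes were listed, and 9 in mouse RPE/choroid, where 25038 were listed and Cdkn2a was not analysed here. The mRPE libraries were 4 of WT cells, 3 of the line mRPE Prom1KO 22 (KO22) and 2 of the line mRPE Prom1KO 26 (KO26). The paper removed both KO26 libraries as outliers of its principal component analysis, and proposes biological heterogeneity or technical anomalies as the reason. They are kept here as a group of their own. These cells came from pooled RPE of C57/BL6J mice and were immortalised with lentiviral HPV E6/E7, so the WT cells carry those genes as well. Both KO lines were made in cells that stably expressed Cas9, by a guide RNA against exon 5 of Prom1, and they are described as independent lines with deletions at separate sites. Each KO group is therefore 1 line, whose own history cannot be told apart from the loss of Prom1. Whether the sequenced WT cells carried Cas9 or had received a scrambled guide is not stated. The RPE/choroid libraries were 3 of WT mice and 3 labelled Prom1-KO, of mice in which RPE65-Cre, a Cre that acts in the RPE, was to delete Prom1 after tamoxifen gavage, while the choroid sampled with it keeps Prom1. Neither the age of each mouse nor whether the WT mice carried Cre, floxed alleles or tamoxifen is stated with the samples.

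In G1 the D-type cyclins bind CDK4 or CDK6, and the active kinases phosphorylate RB and its relatives, which frees E2F transcription factors to switch on genes of S phase. INK4 proteins bind CDK4 and CDK6 and keep the D cyclins off, whereas p27 mainly holds back the cyclin E-CDK2 kinase and also sits on cyclin D-CDK complexes. Cdkn2a encodes the INK4 protein p16 from one promoter and p19ARF, which protects p53 by binding MDM2, from another. In the adult eye the RPE is a non-dividing layer in which p27 is a known marker of quiescence, and in cells immortalised with E6/E7 the viral proteins act on p53 and RB directly.

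Total counts lay between 8076188 and 27537863 in the mRPE libraries and between 48154444 and 61766179 in RPE/choroid. Library-name prefixes divide the mRPE libraries into sequencing batch 8995, with 1 WT, 1 KO22 and 1 KO26 library, and batch 9262, with 3 WT, 2 KO22 and 1 KO26 library. WT libraries of batch 9262 differed from each other by a chi-square of at most 7.2 for each degree of freedom, whereas they differed from the WT library of batch 8995 by at least 59.3. The batch was therefore a term in every mRPE fit. Mitochondrially encoded genes took 12.9% to 21.6% of the mRPE counts. They took 64.9% to 71.3% of the counts in 5 RPE/choroid libraries and 84.2% in the third Prom1-KO library, which stood apart. Of 15 RPE markers only 4 were analysed in mRPE, Rpe65 not among them, and they summed to 8.17 to 40.0 counts per 1000000 (CPM, on the TMM scale within each table). In RPE/choroid the same 15 markers were all present and summed to 2388 to 3436 CPM in WT and 1142 to 1361 CPM in Prom1-KO. Prom1, the targeted gene, was not analysed here in mRPE. In RPE/choroid it stood at 48.7, 49.6 and 53.3 CPM in WT and at 49.9, 48.1 and 35.5 CPM in Prom1-KO, a log2 fold change of -0.18 that did not pass the test (adjusted p = 0.824). The libraries labelled Prom1-KO thus did not show a lower Prom1 level by this measure, and the directions given for them are those of the labels.

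KO22 differed from WT at 8 of the 10 genes, of which Cdk6, Cdkn2a, Cdkn2b, Ccnd1, Cdkn2c and Cdkn2d rose and Cdkn1b and Ccnd2 fell. This count stands beside 53% of all tested genes that passed the same test, an adjusted p under 0.05 from edgeR, in KO22 (26.9% higher and 26.1% lower). Past an absolute log2 fold change of 1.2 as well, the second limit of the study's methods, 4 of the 10 remained (Cdk6, Cdkn2a and Cdkn2b higher, Cdkn1b lower), beside 25.2% of all genes (11.4% higher and 13.8% lower). Cdkn2a met the count minimum only through its 3 KO22 libraries, so its place among the genes tested depended on its level there. Without it, 7 of 9 genes passed the test and 3 of 9 passed both limits, and their median log2 fold change was 0.78, beside -0.03 over all tested genes. Cdkn2b, still among these 9, also met the count minimum only with its KO22 libraries. Apart from it, the genes past both limits were Cdk6 and Cdkn1b. The KO22 and WT libraries did not overlap at 7 of the 10 genes, Cdkn2a and Cdkn2b among them, beside 50.1% of all genes. In KO26 only Cdk6 passed the test, beside 3.5% of all genes (2.36% higher), and 4 genes (Ccnd1, Ccnd2, Cdk6 and Cdkn2d) did not overlap with WT, beside 24.7%. In RPE/choroid 0 of the 9 genes passed the test, beside 0.193% of all genes. There 2 of the 9 had an unadjusted p under 0.05, beside 8.3%, and the DESeq2 test called 0.

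**Figure D1:**
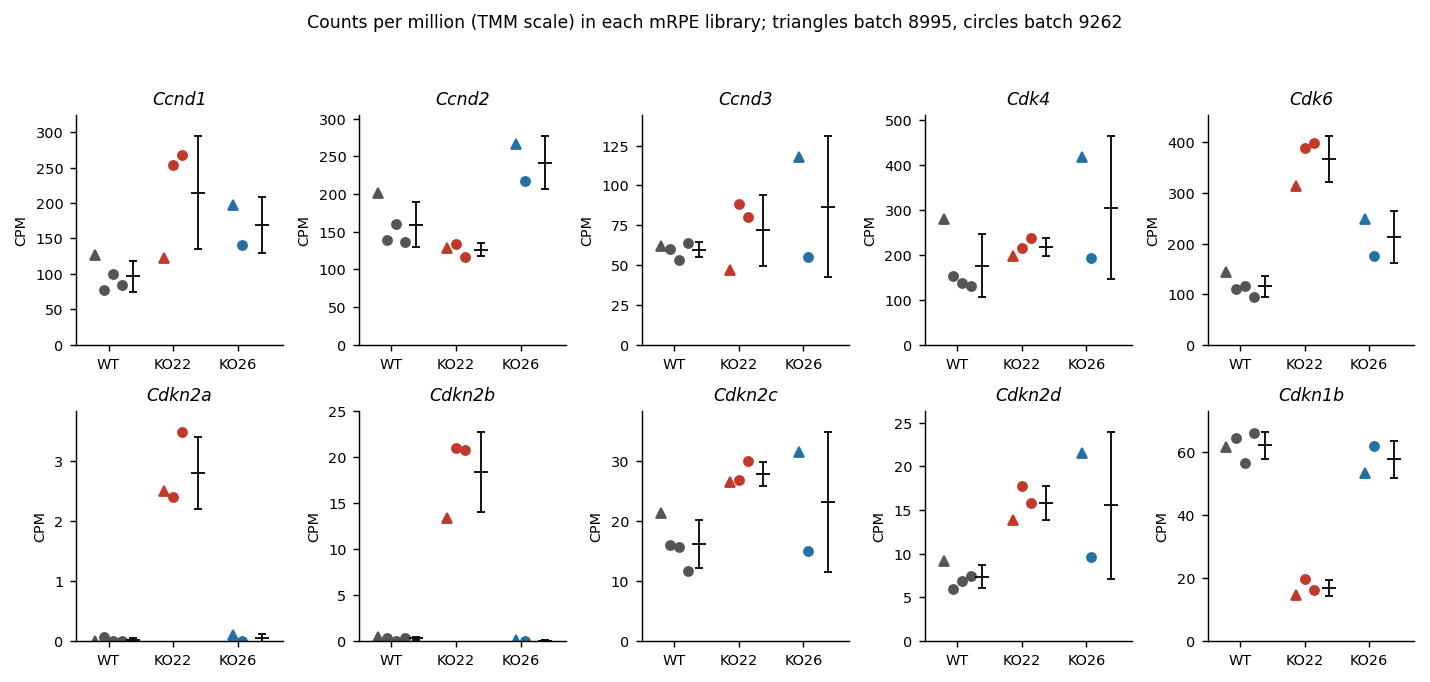
Level of each gene in each mRPE library, in CPM on an axis from 0, with triangles for batch 8995 and circles for batch 9262 and with the bar beside each group giving mean ± SD (WT n = 4, KO22 n = 3, KO26 n = 2). Cdk6, Cdkn2a, Cdkn2b, Cdkn1b and Ccnd2 separate KO22 from the other 6 libraries, Ccnd2 by a small margin (highest KO22 133 CPM, lowest WT 136 CPM). Ccnd1, Ccnd3 and Cdk4 lie lower in the batch 8995 library of KO22 than in the other 2.

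The D cyclins are the subunits that growth signals induce and that activate CDK4 and CDK6. Ccnd1 (GRCm39 chr7:144483668-144493662) stood at 126, 76.7, 99.1 and 83.9 CPM in the WT libraries and at 122, 253 and 268 CPM in KO22. The first KO22 library, of batch 8995, lay within the WT range, and the other 2 lay above every WT library. Ccnd1 rose in KO22 by 1.13 ± 0.27 (SE) on the log2 scale (2.19-fold, adjusted p = 0.00587). Within batch 8995 the difference was -0.04 with 1 library a group, and within batch 9262 it was 1.58, both from CPM with a pseudocount of 0.5, so the rise was not seen in batch 8995. KO26 stood at 197 and 141 CPM, above all 4 WT libraries (log2 fold change 0.80, adjusted p = 0.182). LTO1, a protein-coding gene that overlaps Ccnd1 on the opposite strand, rose by 0.87 in KO22 (adjusted p = 0.0126). Which strand was counted is not given in the sources used here, so reads of the overlap cannot be assigned to one of the pair.

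Ccnd2 (chr6:127102125-127129156) was the D cyclin that fell in KO22, where Ccnd1 rose. Its levels were 201, 139, 160 and 136 CPM in WT, 128, 133 and 116 CPM in KO22 and 267 and 217 CPM in KO26. The 3 groups did not overlap, with KO22 lowest and KO26 highest. The fall in KO22 was small (log2 fold change -0.34 ± 0.13, SE, adjusted p = 0.0458) and lost its call in 6 of 13 alternatives, namely without the batch term and without WT library 1, 2 or 3 or KO22 library 1 or 3. The direct test of KO22 against KO26 gave -0.88 ± 0.15 (adjusted p = 0.00158), a call kept in all 15 alternatives run. Gm43126, a long noncoding RNA opposite Ccnd2, had similar differences (-0.45 against WT and -0.89 against KO26).

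Ccnd3 (chr17:47815767-47910624) stood at 62.2, 59.9, 53.1 and 63.7 CPM in WT and at 46.6, 88.6 and 79.9 CPM in KO22. The KO22 library of batch 8995 was below WT and both of batch 9262 were above it. The fit over both batches gave 0.25 (adjusted p = 0.255). Without WT library 1 it was 0.50 (adjusted p = 8.69e-05), and without KO22 library 1 it was 0.53 (adjusted p = 4.73e-05), either of which leaves only batch 9262 to compare the groups. KO26 stood at 118 and 55.3 CPM, the higher value in batch 8995. Bysl, a ribosome assembly gene opposite Ccnd3, rose by 0.67 in KO22 (adjusted p = 0.0133).

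Per kilobase of annotated exon, Ccnd1 made up 46.1% ± 2.46 (SD, n = 4) of the summed D cyclin level in WT and 66.5% ± 7.75 (n = 3) in KO22. The share of Ccnd2 was 38.8% ± 1.08 in WT and 21.8% ± 7.89 in KO22, where it ranged from 16.0% to 30.8%. Ccnd3 held the smallest share in both, 15.2% ± 2.78 and 11.7% ± 0.69. In KO26 the shares were 50.2% for Ccnd1, 36.9% for Ccnd2 and 12.9% for Ccnd3, between those of WT and KO22 for the first and second. These shares rest on 1 length for each gene, the union of its annotated exons, and were not tested.

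Cdk4 and Cdk6 are the catalytic partners. Cdk6 (chr5:3391485-3581008) stood at 144, 109, 115 and 94.1 CPM in WT and at 314, 389 and 398 CPM in KO22, every KO22 library more than 2-fold above the highest WT library. The rise was 1.67 ± 0.16 (SE) on the log2 scale (3.17-fold, adjusted p = 2.68e-05), and it was 1.13 within batch 8995 and 1.88 within batch 9262. Gm17590, a noncoding RNA opposite Cdk6, rose by 1.10 in KO22 (adjusted p = 0.00286). KO26 lay between, at 249 and 176 CPM. Cdk6 was the 1 gene of the 10 that passed the test in KO26 (0.82 ± 0.19, adjusted p = 0.0405), although the call was lost in 9 of 15 alternatives, among them the removal of either KO26 library or of any WT library. KO22 exceeded KO26 by 0.85 (adjusted p = 0.00962), and that call was lost without KO26 library 2 (adjusted p = 0.118) and with the KO22 and KO26 libraries fitted alone (adjusted p = 0.0907).

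Cdk4 (chr10:126895180-126903789) showed no such separation. It stood at 280, 153, 138 and 131 CPM in WT, 198, 216 and 239 CPM in KO22 and 418 and 192 CPM in KO26. The highest values of WT and KO26 were the libraries of batch 8995. The KO22 difference was 0.35 (adjusted p = 0.178). Without WT library 1 it was 0.68 (adjusted p = 2.68e-06) and without KO22 library 1 it was 0.70 (adjusted p = 1.31e-06), while within batch 8995 it was -0.50. Opposite Cdk4 lie Tspan31, which changed by -0.01 in KO22, and Marchf9, which fell by 1.79 (adjusted p = 0.00802). Per kilobase of exon, Cdk6 made up 14.2% ± 2.40 (SD) of the 2 kinases in WT, 28.7% ± 1.29 in KO22 and 15.2% ± 3.90 in KO26, and all 3 KO22 libraries (27.5% to 30.0%) lay above the WT range of 10.9% to 16.7%.

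Cdkn2a and Cdkn2b lie next to each other on the minus strand of chromosome 4 (chr4:89192708-89212890 and chr4:89223204-89229276). The deposited tables count a gene as a whole, so the p16 and p19ARF transcripts of Cdkn2a cannot be told apart. The sequence before each of the 3 starts is shown because these genes moved together in KO22. It is taken from RefSeq (GRCm38.p6), was found once in GRCm39 and is limited to bases that precede the annotated start in both. Capitals mark motif matches.
Cdkn2a, p19ARF start (chr4:89212891-89213106, minus strand): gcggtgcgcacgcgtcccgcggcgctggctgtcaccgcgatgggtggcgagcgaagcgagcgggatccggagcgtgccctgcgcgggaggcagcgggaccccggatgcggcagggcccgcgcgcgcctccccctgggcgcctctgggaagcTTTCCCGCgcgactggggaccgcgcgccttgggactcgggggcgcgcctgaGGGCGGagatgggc
Cdkn2a, p16 start (chr4:89200430-89200679, minus strand): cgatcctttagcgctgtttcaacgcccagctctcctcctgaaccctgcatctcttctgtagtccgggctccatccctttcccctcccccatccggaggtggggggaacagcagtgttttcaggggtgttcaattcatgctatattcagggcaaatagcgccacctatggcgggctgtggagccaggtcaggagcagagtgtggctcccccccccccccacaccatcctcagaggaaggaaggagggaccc
Cdkn2b (chr4:89229277-89229519, minus strand): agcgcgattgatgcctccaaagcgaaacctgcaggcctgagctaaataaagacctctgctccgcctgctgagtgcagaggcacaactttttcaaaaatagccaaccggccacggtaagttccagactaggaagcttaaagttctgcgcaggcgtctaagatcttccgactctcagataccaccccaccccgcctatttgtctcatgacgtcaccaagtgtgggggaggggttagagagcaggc

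The windows of 250 bases before the RefSeq starts were searched on both strands for the E2F motifs TTTCCCGC, TTTGGCGC and TTTCGCGC, the GC box GGGCGG, the CCAAT box CCAAT, the TATA box TATAAA and the E-box CACGTG. The window of the p19ARF start held TTTCCCGC, 99 bases before the start, and GGGCGG, 48 and 14 bases before it, the last of which lies beyond the stretch printed. Of 32851 promoter windows of the same length, 0.895% held TTTCCCGC and 32.7% held GGGCGG. The windows of p16 and Cdkn2b held none of the 7 motifs, which says only that these letters are not there. The p19ARF window had 40 CpG dinucleotides (98.7th percentile of all windows) and a GC content of 78.4%, against 7 CpG for p16 and 12 for Cdkn2b, beside a median of 6.

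Cdkn2b encodes p15, the INK4 protein known for its induction by TGF-beta. It had 9, 5, 0 and 4 counts in the WT libraries, 154, 435 and 268 in KO22 and 1 and 0 in KO26. As levels these were 0 to 0.358 CPM in WT, 13.3, 21.0 and 20.8 CPM in KO22 and 0.0464 and 0 CPM in KO26. KO22 lay far above both other groups in both batches. The pooled level in KO22 was 67.3 times that in WT (95% counting interval 42.3 to 114) and 573 times that in KO26, where only 1 count stood in the denominator (interval 103 to 22645). The rise passed the test against WT (adjusted p = 2.43e-06) and against KO26 (adjusted p = 1.45e-05). The gene met the count minimum of both tests only with its KO22 libraries. KO26 was below WT in pooled level (ratio 0.118, interval 0.0028 to 0.744), a difference that did not pass the test (adjusted p = 0.214). The intervals cover counting error only.

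Cdkn2a had 0, 1, 0 and 0 counts in WT, 29, 50 and 45 in KO22 and 2 and 0 in KO26. In KO22 this was 2.51, 2.41 and 3.49 CPM, and 0.0928 CPM was the highest level among the other 6 libraries. The pooled ratio of KO22 to WT was 175 from a single WT count (interval 30.9 to 6978), and the ratio to KO26 was 41.4 (interval 11.2 to 346). Both differences passed the test (adjusted p = 2.1e-05 and 0.000571), which the gene entered through its KO22 libraries alone. With no count filter, when every listed gene is tested, the adjusted p were 1.98e-05 and 0.000562. WT and KO26 were both at or under 3 counts in every library, so no fold is given between them.

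Cdkn2c and Cdkn2d encode p18 and p19INK4d, the INK4 proteins expressed through development and the cell cycle. Cdkn2c (chr4:109517957-109524386) stood at 21.3, 15.9, 15.6 and 11.6 CPM in WT and at 26.6, 26.8 and 30.0 CPM in KO22. It rose by 0.78 ± 0.18 on the log2 scale (1.72-fold, adjusted p = 0.00438). Cdkn2d (chr9:21199700-21202727) stood at 9.10, 5.96, 6.87 and 7.39 CPM in WT and at 13.8, 17.7 and 15.8 CPM in KO22. It rose by 1.10 ± 0.18 (2.15-fold, adjusted p = 0.000788). Both were smaller within batch 8995 (0.31 and 0.58) than within batch 9262 (0.96 and 1.25). The KO26 libraries stood at 31.4 and 14.9 CPM for Cdkn2c and at 21.5 and 9.60 CPM for Cdkn2d, with wide spread between their batches, and neither passed the test in KO26 (adjusted p = 0.425 and 0.0896). KO22 and KO26 were not shown to differ at either gene (0.42, 95% interval -0.17 to 1.00, and 0.15, interval -0.50 to 0.80).

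Cdkn1b (chr6:134897364-134902476) was the inhibitor that fell. It stood at 61.5, 64.6, 56.4 and 66.0 CPM in WT, 14.5, 19.6 and 16.0 CPM in KO22 and 53.4 and 61.9 CPM in KO26. The lowest of the 6 other libraries was more than 2-fold above the highest of KO22. The fall in KO22 was 1.88 ± 0.13 (SE) on the log2 scale (3.69-fold lower, adjusted p = 5.49e-06), with -2.04 within batch 8995 and -1.78 within batch 9262. KO26 differed from WT by -0.07 (95% interval -0.40 to 0.25, adjusted p = 0.811), and KO22 lay below KO26 by 1.81 (log2 fold change -1.81, adjusted p = 1.82e-05). Of the 2 tested transcripts nearest to it, the opposite-strand Gm44238 changed by 0.30 (adjusted p = 0.377) and Lockd, a noncoding RNA whose lower coordinate lies 7.6 kb beyond, fell by 0.57 (adjusted p = 0.0191).

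**Figure D2:**
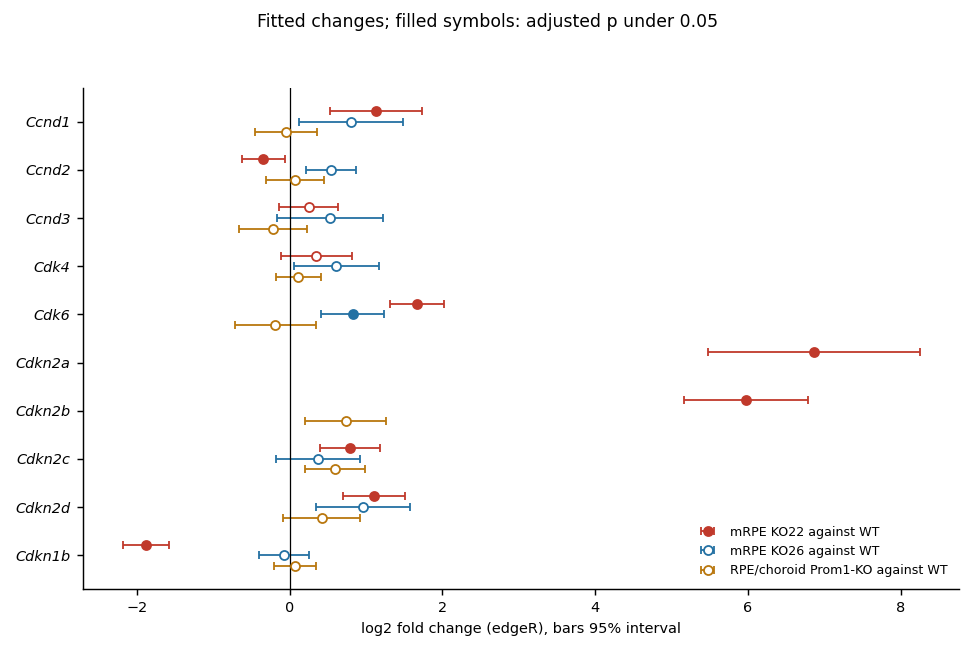
Fitted log2 fold change of each gene with its 95% interval in KO22 against WT, KO26 against WT and RPE/choroid Prom1-KO against WT, filled where the adjusted p was under 0.05. Cdkn2a and Cdkn2b in KO26 are left out because both groups were near 0 counts, their fitted sizes in KO22 depend on the prior count, and no gene of RPE/choroid is filled.

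The direct test of KO22 against KO26 passed at 5 of the 10 genes, Cdk6, Cdkn2a and Cdkn2b higher in KO22 and Ccnd2 and Cdkn1b lower, beside 34.4% of all genes (16.3% higher and 18.1% lower). Past the fold limit as well stood Cdkn2a, Cdkn2b and Cdkn1b, 3 of the 10, beside 18.3% of all genes (7.56% higher and 10.7% lower). Cdkn2a and Cdkn2b met the count minimum only with their KO22 libraries, so their place in this test depended on their level there. Without Cdkn2a, 4 of 9 genes passed the test and 2 of 9 passed both limits, with Cdkn2b still counted in each. The same 5 genes had no overlap between the lines, beside 47.9% of all genes. The comparisons of KO22 and KO26 with WT share the WT libraries.

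The genes around each member were compared with it. Within 5 Mb of Cdkn2b, 29 other genes were tested and their median change in KO22 was 0.13, with 10 higher and 7 lower past the test. Over all tested genes in KO22, 26.9% were higher and 26.1% lower. Gm12610, a noncoding RNA that overlaps Cdkn2b on the opposite strand, had 3, 10, 6 and 4 counts in WT, 358, 472 and 293 in KO22 and 4 and 4 in KO26 (log2 fold change 6.06 in KO22, adjusted p = 2.74e-06). Reads of Cdkn2b and Gm12610 in their overlap cannot be told apart. Gm12608, whose lower coordinate lies 107 kb beyond that of Cdkn2b, had 25, 29 and 34 counts in KO22 and 0 to 3 in each of the other 6 libraries. Gm12610, Gm12608 and Cdkn2a, all among the 10 higher genes, met the count minimum only with their KO22 libraries. Mtap, an enzyme of methionine salvage on the other side of Cdkn2a, rose less, by 0.81 (adjusted p = 0.00122). Around Cdkn1b the 53 tested genes had a median of -0.22, with 5 higher and 17 lower past the test, beside those same shares of all genes. Of the 53, 6 lay below Cdkn1b itself. Among these neighbours Apold1, 61.3 kb away by lower coordinate, fell by 2.76 (adjusted p = 0.0103), 2810454H06Rik, on the other side, fell by 1.62 (adjusted p = 0.0172), and Crebl2, named after its value was seen, fell by 2.99 (adjusted p = 9.9e-06). Around Cdk6 the median of 49 genes was 0.12 and only 2 lay above it. Whole chromosomes also differed in KO22, with a median of -0.54 on chromosome 10, which holds Cdk4, -0.45 on chromosome 6, which holds Ccnd2 and Cdkn1b, and 0.26 on chromosome 4, so Ccnd2 fell by less than the median gene of its chromosome. The part of these regional shifts in the single genes was not tested.

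**Figure D3:**
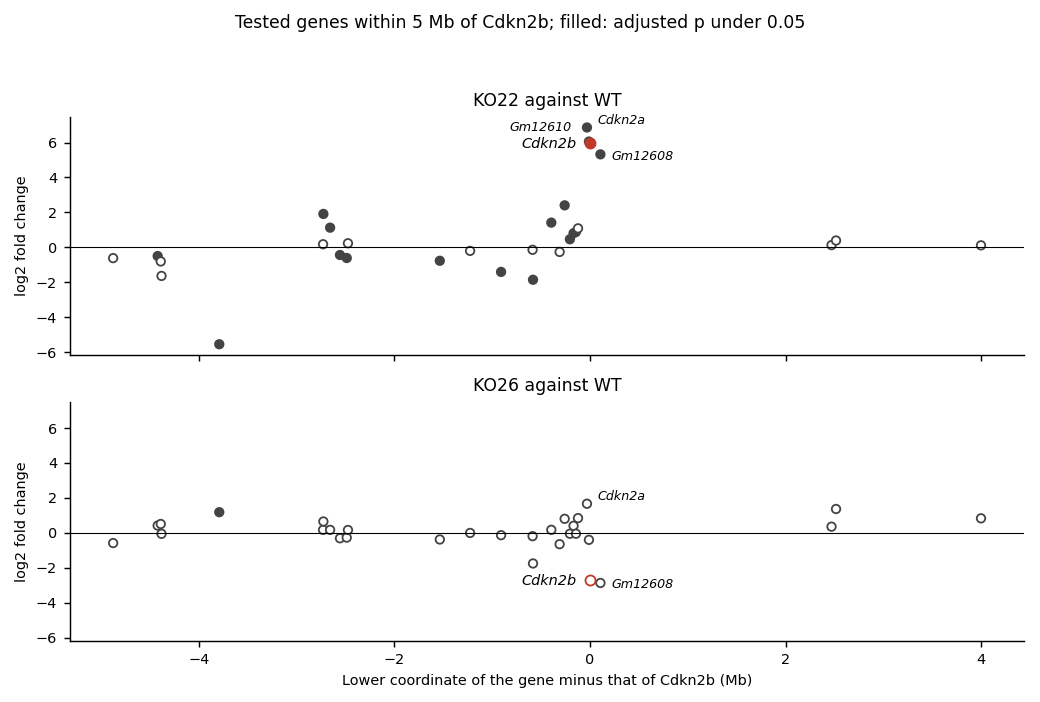
Log2 fold change of tested genes against the distance of their lower coordinate from that of Cdkn2b, in Mb, for KO22 (top) and KO26 (bottom), filled where the adjusted p was under 0.05. In KO22 Cdkn2a, Cdkn2b, Gm12610 and Gm12608 lie above 5 and no other gene of the window lies above 3.

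The partners of these genes were described through 7 lists, taken up with earlier results of these data known. The list of the G1/S core (24 genes: E cyclins, CDK2, RB family, E2F factors, other inhibitors) had 16 genes higher and 6 lower in KO22, with a median of 0.83, and 91.7% of it passed beside 53% of all genes. Ccna2, the S-phase cyclin, rose by 2.38 and Tfdp1, the partner of E2F factors, by 1.41. Ccne1 and Ccne2, the E cyclins, rose by 1.65 and 1.22, E2f2 by 2.99 and Rbl1 (p107) by 1.32. Rb1 fell by 0.51 and Rbl2 (p130) fell by 0.34. E2f1 changed by 0.60 (adjusted p = 0.0596) and Cdk2 rose by 0.43 (adjusted p = 0.0317).

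The other CIP/KIP inhibitors fell with Cdkn1b in KO22. Cdkn1c (p57) had 40, 19, 15 and 14 counts in WT and 0 in all 3 KO22 libraries, which is a fall whose fitted size of -7.39 depends on the prior count (adjusted p = 0.000244), and KO26 had 50 and 6 counts. Cdkn1a (p21), the p53 target, stood at 116, 61.8, 71.6 and 61.2 CPM in WT and at 78.0, 50.1 and 46.7 CPM in KO22. It fell in KO22 by 0.47 on the log2 scale (adjusted p = 0.0053) and rose in KO26 by 0.71 (adjusted p = 0.0288, 150 and 125 CPM), and KO22 differed from KO26 by -1.17 (adjusted p = 0.000308). Cdkn1c differed by -0.06 between KO26 and WT (adjusted p = 0.959).

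Genes downstream of the pathway that passed the test were all higher in KO22 and in KO26. Of 24 E2F targets and replication genes, 22 rose in KO22 and 0 fell (median 2.13), beside 26.9% of all genes higher and 26.1% lower. The lowest adjusted p were at Cdc45 (3.37), Gins2 (2.32) and Mcm3 (2.74). All 20 genes of G2 and mitosis rose in KO22 (median 2.21), among them Ube2c (2.46), Tpx2 (2.31) and Ccnb1 (2.50). In KO26, 10 and 15 of these genes rose and 0 fell, with medians of 1.12 and 1.38, beside 3.5% of all genes that passed (2.36% higher). The lowest adjusted p were at Cdc45 (1.85), Mcm10 (1.62) and Cdc6 (1.79) in the first list and at Tpx2 (1.55), Aurkb (1.82) and Bub1 (1.55) in the second. Mki67, the antigen used to count cycling cells, rose by 1.69 in KO22 (adjusted p = 4.57e-05) and by 1.09 in KO26 (adjusted p = 0.0198). In the direct test, 14 of the 24 and 10 of the 20 were higher in KO22 than in KO26 and 0 were lower. Over all genes 16.3% were higher and 18.1% lower in that test. The comparisons of both lines use the same WT libraries. In bulk RNA, more cycling cells and more RNA of these genes per cell cannot be told apart. The KO26 counts rest on single libraries, since over the 7 lists together 32 genes passed with all libraries, 3 without KO26 library 1, 8, 6 and 8 without WT library 2, 3 or 4, 72 without KO22 library 1 and 21 without KO22 library 2.

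The list of p27 and cyclin D turnover (17 genes) had 6 genes higher and 3 lower in KO22 (median 0.22), and this share of 52.9% is that of all genes, 53%. Skp2 and Cks1b, the substrate receptor and cofactor through which p27 is degraded, rose by 2.04 (adjusted p = 8.64e-06) and 2.77 (adjusted p = 2.06e-05), and Hsp90ab1, a chaperone, rose by 1.24. Usp2, which removes ubiquitin from cyclin D1, fell by 1.28, Ddb1 fell by 0.54 and Dyrk1b, a kinase of quiescence, fell by 0.87. Skp2 stood at 36.8, 27.4, 26.7 and 24.5 CPM in WT, 103, 121 and 133 CPM in KO22 and 52.4 and 39.0 CPM in KO26. In KO26 0 of the 17 passed the test. Of 7 tested transcription factors of Cdkn1b, Foxo1 fell by 0.69, Foxo3 fell by 0.52 and Klf6 fell by 1.05 in KO22, while Sp1 rose by 0.53 and 3 did not pass, so that 57.1% passed, near the share of all genes.

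Among 29 regulators of the INK4/ARF locus, 7 were higher and 12 lower in KO22 (median -0.20). The share that was higher, 24.1%, is near the 26.9% of all genes, and 41.4% were lower beside 26.1% of all genes. Ezh1 and Ezh2 are the alternative methyltransferases of Polycomb complex PRC2, and Ezh1 fell by 1.42 (adjusted p = 6.43e-06) while Ezh2 rose by 1.08 (adjusted p = 0.00192). Suz12, a PRC2 subunit, rose by 0.87, and Phc2, a PRC1 subunit, by 1.06. Bmi1, a PRC1 subunit known to repress the locus, changed by -0.19 (adjusted p = 0.321). Id1, an inhibitor of bHLH factors, rose by 1.85. Downstream of p19ARF, Mdm2 fell by 0.63 and Trp53 fell by 1.02 (adjusted p = 0.00258). In KO26 0 of the 29 passed.

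Of 25 inducers of D cyclins, 8 were higher and 6 lower in KO22 (median 0.11), a share of 56% that is near the 53% of all genes. Myc rose by 1.15 (adjusted p = 3.15e-05), and the AP-1 subunits Fosl1 and Jun rose by 2.81 and 0.76 while Fos fell by 1.04. Tcf7l2, a TCF factor through which beta-catenin acts, fell by 2.25 (adjusted p = 2.83e-06), and Gli2, a hedgehog factor, fell by 1.64. In KO26 only Tcf7l1 passed the test (0.97). Over the 7 lists 80 genes were higher and 30 lower of 146 tested in KO22 (median 0.66), and 32 and 0 in KO26 (median 0.34). In KO22 these were 54.8% and 20.5%, beside 26.9% and 26.1% of all genes. In KO26 21.9% were higher, beside 2.36% of all genes. A list of fibroblast and mural markers summed to 8663 to 12501 CPM in WT, 4320 to 7148 CPM in KO22 and 14156 to 14267 CPM in KO26. Its 9 tested genes were 1 higher and 6 lower in KO22 (11.1% and 66.7%, beside 26.9% and 26.1% of all genes). Their part in the results above was not tested.

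**Figure D4:**
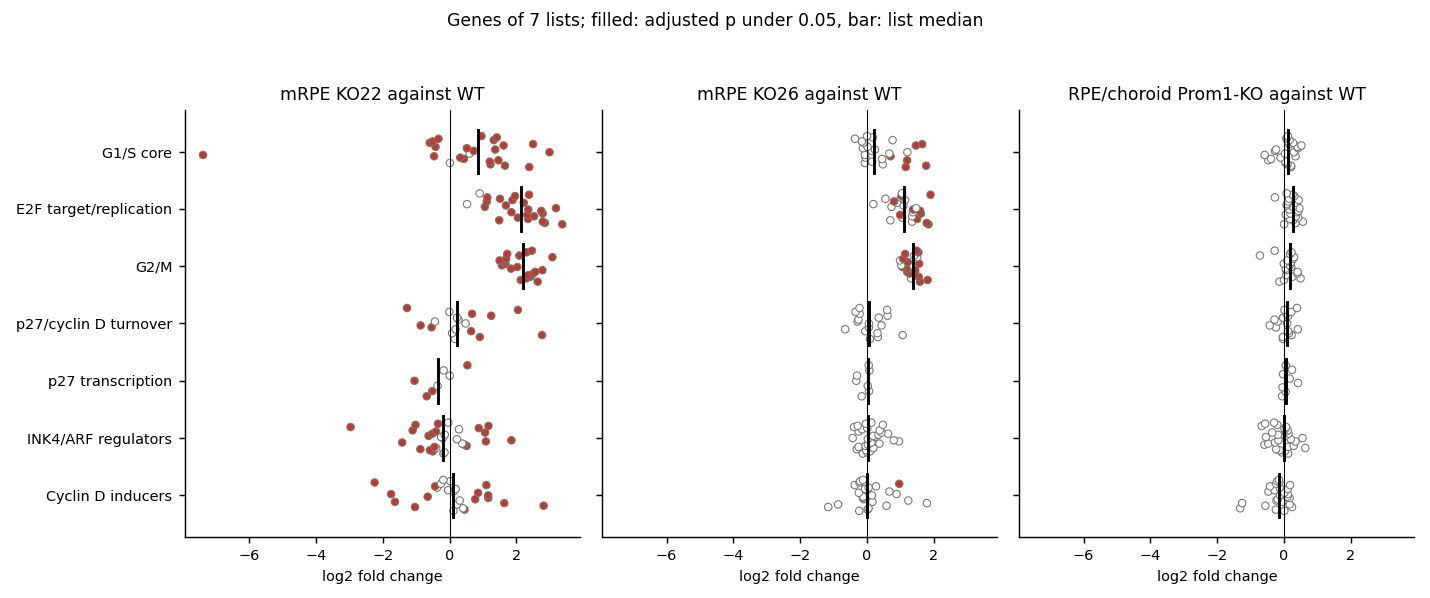
Log2 fold change of every tested gene of the 7 lists (rows) in KO22, KO26 and RPE/choroid, filled where the adjusted p was under 0.05, with a bar at each list's median. The E2F target and G2/M rows sit to the right of 0 in both mRPE lines (medians 2.13 and 2.21 in KO22, 1.12 and 1.38 in KO26), and no point is filled in RPE/choroid.

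The pattern of each gene over the 9 mRPE libraries was set beside that of 16372 others by Pearson correlation of log2 CPM, given as a description, since the KO22 libraries form a cluster of their own and a gene that separates them correlates with any other that does. Nearest to Cdk6 were Ipo5 (0.997) and the mitotic cyclin Ccnb2 (0.994), nearest to Cdkn1b were Tmem8b (0.997), Gm37804 (0.995) and Ric8b (0.995), and nearest to Cdkn2b was Oxsr1 (0.991). For Ccnd1 the overlapping gene LTO1 was among the nearest (0.984).

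In RPE/choroid the libraries labelled Prom1-KO, in which Prom1 was not shown to be lower, were compared with WT at the 9 genes, and none passed the test. The values of Ccnd1 were 67.6, 51.3 and 50.0 CPM in WT and 47.9, 62.7 and 52.7 CPM in Prom1-KO, a difference of -0.05 (95% interval -0.45 to 0.36). Cdkn1b, which fell in KO22, stood at 15.6, 14.8 and 14.1 CPM in WT and at 15.2, 16.7 and 14.8 CPM in Prom1-KO (0.07, interval -0.21 to 0.35). That interval holds no fall of the size seen in KO22. It is of RPE and choroid together, so a fall within the RPE cells alone was not tested. Cdk6 stood at 29.8, 32.9 and 18.5 CPM and at 22.6, 27.3 and 21.5 CPM (-0.19, interval -0.71 to 0.34). Ccnd2, Ccnd3 and Cdk4 overlapped between genotypes as well, with differences from -0.23 to 0.11. Without the third Prom1-KO library 0 of the 9 genes passed either.

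Cdkn2b and Cdkn2c were the 2 genes whose genotypes did not overlap in RPE/choroid, beside 14.6% of all tested genes. Cdkn2b had 1.16, 1.15 and 1.17 CPM in WT and 1.55, 1.93 and 2.32 CPM in Prom1-KO. This difference of 0.73 ± 0.22 (SE) had an unadjusted p of 0.0132 and an adjusted p of 0.411. Cdkn2c had 2.79, 2.33 and 2.24 CPM in WT and 3.42, 3.85 and 3.88 CPM in Prom1-KO, a difference of 0.60 ± 0.17 with an unadjusted p of 0.00846 and an adjusted p of 0.351. Cdkn2d differed by 0.42 (adjusted p = 0.684), with groups that overlapped. Gm12610, opposite Cdkn2b, had 7, 6 and 18 counts in WT and 36, 35 and 24 in Prom1-KO (adjusted p = 0.201). Summed RPE markers were lower in these Prom1-KO libraries (1142 to 1361 against 2388 to 3436 CPM). Of the 15, 4 were lower past the test and 0 higher, beside 0.193% of all genes passing in either direction. Summed endothelial markers were lower as well (91.9 to 127 against 140 to 273 CPM), but 0 of the 10 passed the test. Photoreceptor markers ranged from 24.5 to 608 CPM in Prom1-KO and from 47.4 to 1247 CPM in WT. The part of these markers in the values above was not tested. Of the 147 genes of the 7 lists 0 passed the test in RPE/choroid. Of these 147 genes DESeq2 called 1.

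**Figure D5:**
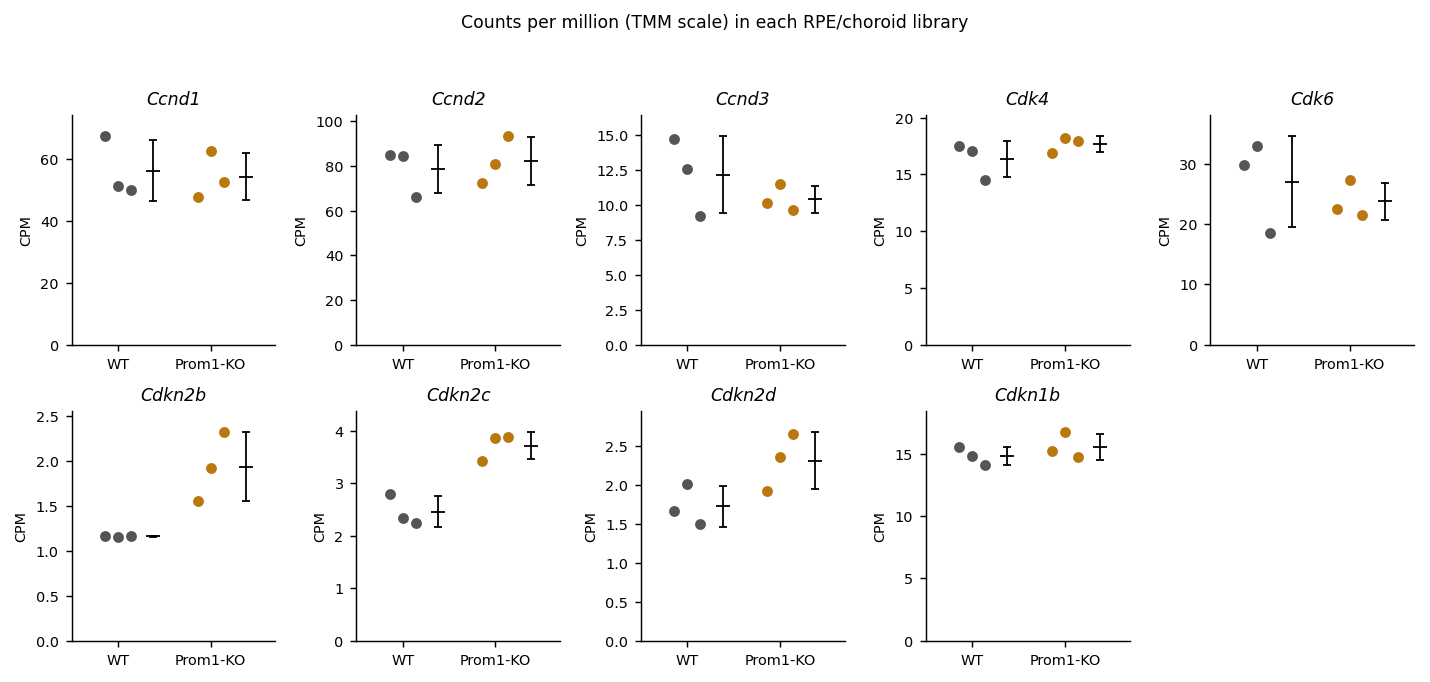
Level of the 9 genes in each RPE/choroid library, in CPM on an axis from 0, with mean ± SD beside each group (n = 3 each). Only in Cdkn2b and Cdkn2c do all 3 Prom1-KO points lie above all 3 WT points, and neither passed the test after adjustment.

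The tables of mRPE and RPE/choroid were normalized separately, so levels across them are set side by side without a test. WT RPE/choroid was below WT mRPE for Ccnd3 (12.2 against 59.7 CPM), Cdk4 (16.3 against 176), Cdk6 (27.1 against 116), Cdkn2c (2.46 against 16.1), Cdkn2d (1.73 against 7.33) and Cdkn1b (14.8 against 62.1). With the mitochondrial genes left out of both tables these 6 genes were still lower in RPE/choroid, but by much less for most. They then stood at 43.8 against 72.7 CPM for Ccnd3, 58.9 against 215 for Cdk4, 97.7 against 141 for Cdk6, 8.85 against 19.7 for Cdkn2c, 6.23 against 8.95 for Cdkn2d and 53.4 against 75.6 for Cdkn1b. Cdkn2b was higher in RPE/choroid, 1.16 against 0.25 CPM, and 4.18 against 0.30 CPM without mitochondrial genes. Ccnd1 and Ccnd2 changed order with that choice, from 56.3 against 96.5 and 78.4 against 159 CPM to 203 against 118 and 283 against 194 CPM. Per kilobase of exon the shares of the D cyclins in WT RPE/choroid were 54.9% for Ccnd1, 39.0% for Ccnd2 and 6.09% for Ccnd3. Cdk6 made up 28.0% of the 2 kinases there and 24.3% in Prom1-KO.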

How the data were processed

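RNA was sequenced from mRPE cells (4 WT, 3 KO22 and 2 KO26 libraries) and RPE/choroid (3 WT and 3 Prom1-KO). The authors trimmed the reads with Trim Galore 0.6.7, aligned them to mm39 with STAR, took counts per gene and excluded genes with low counts, and these raw counts were used as deposited. For RPE/choroid only the submitters' processing notes give these steps. The kit is named as NEB stranded in the labels and as TruSeq stranded in the methods, and the counted strand is not given in the sources used here. The authors' tables of normalized counts were not used. Total counts are given with the results, and the third RPE/choroid Prom1-KO library stood apart in its mitochondrial share.

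Samples were grouped by their cell line and genotype labels. The main test was the quasi-likelihood F test of edgeR 4.0.16 in R 4.3.3, two-sided, after TMM scaling, on every gene that reached 5 counts in 3 or more libraries, with Benjamini-Hochberg adjustment across all of them. KO22 was set against WT over 7 libraries, those left once the paper had removed both KO26 libraries as outliers. All 9 mRPE libraries were fitted together to set KO26 against WT and against KO22, and the 6 of RPE/choroid to compare genotypes. The sequencing batch was a term for mRPE. A gene passed at an adjusted p under 0.05. A second limit, taken from the methods, asked for a log2 change of more than 1.2 in size. CPM are on the TMM scale within each table, n counts libraries, and errors are SD for levels and SE for log2 fold changes. The paper calls the replicates biological without saying how the mRPE libraries of a group were cultured, and each KO group is one line, so p-values for mRPE measure the spread between these libraries. Pooled ratios of low genes have exact 95% intervals from the counts.

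The genes and lists were chosen with earlier results of these data known. Genes named were the 10, Prom1, up to 3 genes of each list with the lowest adjusted p among those higher and among those lower in a comparison, a fixed group (Cdkn1a, Cdkn1c, Cdk2, Ccne1, Ccne2, Rb1, Rbl1, Rbl2, E2f1, E2f2, Skp2, Myc, Bmi1, Ezh2, Trp53 and Mki67), overlapping or neighbouring genes and the 3 genes most alike to each of the 10. Rows with no gene symbol kept their identifiers. Locations come from GENCODE vM39 on GRCm39, which is mm39. RefSeq promoter sequences were matched to GRCm39 by sequence. The tests were checked on simulated data. Alternatives were DESeq2 size factors, the DESeq2 1.42.0 test, no count filter, filterByExpr, no batch term, other sets of libraries, values within a batch, each library left out, and RPE/choroid without mitochondrial genes. The comparison of levels without mitochondrial genes in both tables was chosen after seeing the data.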

Additional observations from a re-analysis of the deposited data

Results flagged for a closer look

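KO22 and KO26 differed in their change from WT at 5 genes by the direct test of the 2 lines in edgeR. KO22 minus KO26 was -0.88 for Ccnd2, 0.85 for Cdk6, 5.20 for Cdkn2a, 8.68 for Cdkn2b and -1.81 for Cdkn1b on the log2 scale, and the fitted sizes for Cdkn2a and Cdkn2b depend on the prior count since KO26 had at most 2 counts of either. Cdkn2a and Cdkn2b also met the count minimum only with their KO22 libraries.

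One library lay far from the others of its group at 2 genes, of 10 genes examined in the 4 WT mRPE libraries, where chance gives about 1 in 20, but at Cdkn2a any single count would have been picked out. Cdk4 stood at 280 CPM in WT library 1, the only one of batch 8995, against 131 to 153 CPM in the other 3. Cdkn2a stood at 0.0686 CPM in WT library 2, a single count, against 0 in the other 3.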

How the results depend on the processing

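No paired analysis was possible because replicate numbers were given in the order of the samples and pair no libraries, and the sequencing batch was already a term. Of the 10 genes, 8 passed in KO22 against WT, and 6 to 9 with 1 library left out. With any KO22 library left out Cdkn2a did not meet the count minimum and was not tested, so those counts are of the other genes alone. In KO26 against WT the count of 1 became 3 with the DESeq2 test, 0 without the batch term and 5 with the WT and KO26 libraries alone, and it ranged from 0 to 5 with 1 library left out (0 without any of the WT libraries, KO26 library 1 or KO22 library 2 or 3, 2 without KO26 library 2, 5 without KO22 library 1), while the count past both limits ranged from 0 to 2. The list genes that passed there, 32, became 53 with the DESeq2 test and 70 with WT and KO26 alone, and ranged from 3 to 72 with 1 library left out. For KO22 against KO26, 72 list genes became 23 with these libraries alone and ranged from 39 (without KO26 library 2) to 112 (without KO22 library 1). In RPE/choroid 0 became 1 with the DESeq2 test. Over all genes, 725 calls in KO26 against WT became 1600 with the DESeq2 test, 255 without the batch term, 3146 with WT and KO26 alone and 137 to 3578 with 1 library left out. In KO22 against KO26, 7132 became 3163 with these libraries alone, and in RPE/choroid 48 became 447 with the DESeq2 test and 9 to 41 with 1 library left out. The causes were not tested.

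Ccnd1 in KO22 turned to -0.044 within batch 8995. With 1 library left out, the log2 change of genes that had not passed crossed 0 for Ccnd3 (-0.20 to 1.22), Cdkn2c (-0.029 to 0.77) and Cdkn1b (-0.12 to 0.017) in KO26 against WT, where Cdkn2a, at or under 3 counts in every library, was given no change. It did so for Ccnd3 (-0.97 to 0.45), Cdk4 (-0.59 to 0.21) and Cdkn2d (-0.36 to 0.69) in KO22 against KO26, and for Ccnd1 (-0.16 to 0.10) and Ccnd2 (-0.050 to 0.14) in RPE/choroid. The log2 ratio of WT RPE/choroid over WT mRPE turned from -0.78 to 0.78 for Ccnd1 and from -1.02 to 0.54 for Ccnd2 without mitochondrial genes. The levels of Cdkn2a and Cdkn2b in WT and KO26 rest on at most 9 counts a library, and KO26 on 2 libraries, which limits comparisons between these groups.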
